A study of Mus musculus with 8 samples.

Results

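The 35 core autophagy genes described here were taken by gene symbol from the deposited table of 35275 genes measured in mouse lens fiber cells (FC). All 35 symbols were found in the table, and all 35 passed the minimum level for testing, a group mean of 1.0 FPKM in CS or Ct pools, as did 9794 of the 35275 genes. FPKM is the number of sequenced fragments divided by the gene's length and by the size of the library, so that levels of different genes may be set side by side. The members were listed by name and not picked by a measured value, though earlier results of these data were known when they were chosen. They comprise the ULK initiation complex (5 genes), the class III PI3 kinase complex (6), factors for membrane supply and reading of PI3P (5), the ATG12 conjugation genes (5), genes for processing and lipidation of ATG8 proteins (5), the ATG8 family itself (5), cargo receptors (3) and the transcription factor Tfeb.

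RNA-Seq was carried out on 8 libraries, 4 from cigarette smoke (CS)-exposed and 4 from age-matched, untreated control (Ct) mice of the C57BL/6 strain by the labels (C57BL/6J in the study's methods), and the comparison asks whether CS changes transcript levels in lens FC. Each library was made from the right eyes of 4 mice, with the fiber cell mass separated from the epithelium by hand under a microscope, so single animals cannot be seen. CS-exposed mice were born in a whole-body smoke chamber and breathed smoke in it for 5 hours/day and 5 days/week until they were about 3.5 months of age, and Ct mice were kept in the animal facility over the same time. In each group 2 pools were male and 2 were female, but the labels do not say which, and sex was not used.

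Autophagy encloses cytoplasm, organelles or protein aggregates in a double membrane, the autophagosome, which then fuses with the lysosome. The ULK kinase complex starts the process, the class III PI3 kinase makes the lipid PI3P on the growing membrane, and ubiquitin-like conjugation systems couple ATG8 proteins of the LC3 and GABARAP subfamilies to phosphatidylethanolamine in that membrane, where cargo receptors dock. Lens fiber cells lose their nuclei and organelles as they mature, and autophagy has long been studied in that setting.

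The transcription factor TFEB, a product of one of the 35 genes, binds a palindrome with the core CACGTG that is found in many autophagy and lysosome promoters. The sites below are printed since they show where this core stands in core autophagy promoters. They were searched in the RefSeq promoters of build GRCm38.p6 (250 bases before to 50 bases after the start), in which 29 of the 35 genes could be matched. Each is given 5′ to 3′ on the strand of the gene, with the core in capitals and 12 flanking bases on either side.
Atg3, chr16:45158723-45158752, plus strand: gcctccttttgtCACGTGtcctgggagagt
Atg3, chr16:45158746-45158775, plus strand: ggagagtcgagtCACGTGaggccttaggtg
Atg5, chr10:44268313-44268342, plus strand: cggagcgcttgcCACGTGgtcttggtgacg
Atg7, chr6:114670952-114670981, plus strand: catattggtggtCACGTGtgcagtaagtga
Atg14, chr14:47568418-47568447, minus strand: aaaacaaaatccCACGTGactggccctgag

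The core began 94 and 71 bases before the start in Atg3, 14 bases before it in Atg5, 132 bases before it in Atg7 and 1 base before it in Atg14. In Atg7 and Atg14 the start is an internal one, since the genes span chr6:114643097-114860614 and chr14:47540893-47570649. The core was thus held by 4 of 29 genes (13.8%), beside 12.7% of the 7260 tested genes with a promoter in the same table and 8.09% of all genes in it. The longer palindrome TCACGTGA, which contains the core, stood only at the second Atg3 site among the members (3.45% of 29 genes, beside 2.52% of the tested genes). Both motifs read the same on both strands. A match describes letters in this window and not binding.

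The libraries held between 18093762 and 23251413 fragments counted on genes, as recovered from the steps of the FPKM values, and the mean total of the CS group was 1.07 times that of the Ct group. The values of the members rested on 30 to 6461 fragments in a library (median 461), and 93.9% of them on at least 100. The 10 fiber cell markers summed to between 83391 and 87679 FPKM in the 8 libraries, led by the crystallin genes Crygs and Cryba1. The 6 markers of the lens epithelium summed to 58.1 to 115 FPKM in Ct pools and 47.1 to 75.3 FPKM in CS pools, with Ct replicate 3 highest and Foxe3 leading the list. All 8 rod photoreceptor markers had a higher mean in CS pools, and their sum ranged from 7.09 to 24.3 FPKM in Ct pools and from 27.0 to 85.5 FPKM in CS pools (p = 0.029 by exact permutation of the libraries, two-sided, which is the lowest p that this design can give), with Gnat1 the highest gene. The 7 pigment epithelium markers summed to 1.75 to 3.16 FPKM in Ct pools and 3.11 to 25.9 FPKM in CS pools, led by Ttr, and CS replicate 3 was highest for both lists. The 7 blood and immune markers summed to 0.328 to 2.33 FPKM in Ct pools and 0.773 to 21.1 FPKM in CS pools. The hemoglobin genes Hbb-bs (11.1 FPKM) and Hba-a1 (9.46 FPKM) made up nearly all of the highest sum, that of CS replicate 4, and Ptprc, which marks all white blood cells, was at or near 0 throughout. The 4 vessel and stroma markers stayed under 0.66 FPKM in sum.

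All 35 core autophagy genes were detected in the lens FC pools, over a range of 118-fold in mean FPKM. The pools also held markers of the lens epithelium and of rod photoreceptors, and which cells the transcripts came from was not tested. Gabarap and Gabarapl1, both of the GABARAP subfamily of ATG8 proteins, Sqstm1, which encodes the ubiquitin-binding cargo receptor p62, and Atg3, the E2-like enzyme that attaches ATG8 proteins to lipid, were the 4 highest. They held 68.9% ± 1.37 (SD, n = 4) of the summed FPKM of the 35 genes in Ct pools and 69.5% ± 0.45 (SD, n = 4) in CS pools. The sum itself lay between 674 and 729 FPKM in the 8 libraries.

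Of the 35 genes, 11 had a mean over 10 FPKM, 15 a mean under 5 FPKM and 12 a mean under 3 FPKM. The median member stood at 5.52 FPKM, beside 4.68 FPKM for all genes tested, and 20 of the 35 lay above that level. After the first 4 came Wipi1 at 25.2 FPKM, Gabarapl2 at 20.7, Nbr1 at 20.2, Wipi2 at 15.8, Optn at 14.2, Atg12 at 12.8 and Map1lc3b at 10.1 (means of 8 libraries). At the low end, Pik3r4 and Atg4d both had a mean of 1.38 FPKM. Neighbours in the order of levels kept their order in 8 of 8 libraries for 10 of 34 pairs, among them every pair from Gabarap down to Gabarapl2. The other 24 pairs changed places in at least 1 library and were not separated beyond the spread between libraries, as with Gabarapl2 and Nbr1 or with Atg101 and Becn1.

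**Figure D1:**
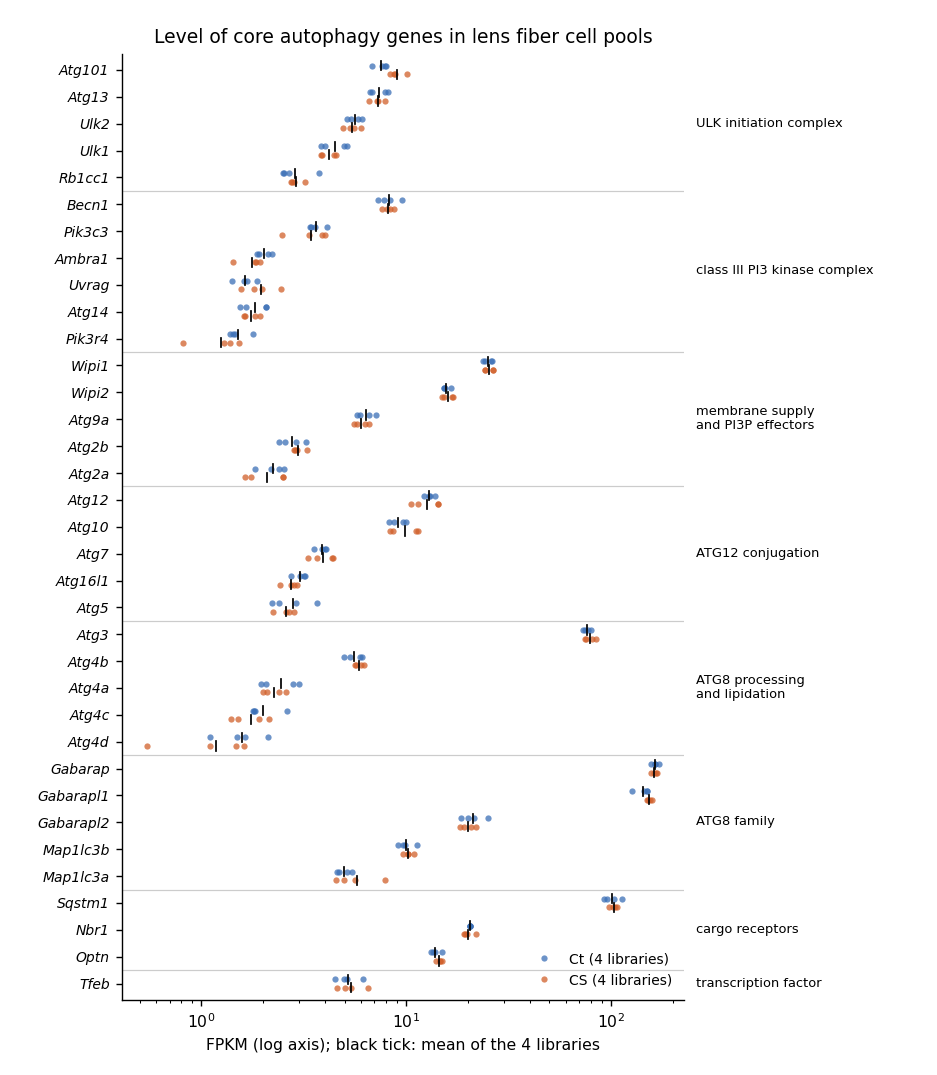
FPKM (log axis) of each core autophagy gene in the 4 Ct pools (blue) and the 4 CS pools (orange), grouped by role, with a black tick at the mean of each group. Gabarap, Gabarapl1, Sqstm1 and Atg3 stand at 72.9 FPKM or above in every library, and the points of the groups lie over each other except for Atg101.

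Lengths affect this order, since FPKM divides by 1 length per gene. The length behind the deposited values equalled the longest coding transcript of GENCODE M21 for 21 of the 35 genes and differed from it by more than 1.3 times for 5. With the longest coding transcript, Map1lc3b would stand at 15.9 in place of 10.1 FPKM, Atg12 at 6.70 in place of 12.8, Atg2b at 3.88 in place of 2.87, Uvrag at 1.20 in place of 1.79 and Atg4d at 0.591 in place of 1.38. Gabarapl1 would stand at 144 FPKM and Atg3 at 78.3, so the 4 highest genes kept their places. Exons of 11 members overlap those of another gene in GENCODE M21, for Atg9a on the same strand and for the others on the opposite strand, and reads of such pairs cannot be told apart where the counting did not use strand.

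Core autophagy genes passed the thresholds no more often than other genes when CS-exposed mice were compared with Ct mice. No member passed an adjusted p under 0.05 (limma, Benjamini-Hochberg over all 9794 genes tested), and the lowest adjusted p of a member was 0.956. Over all genes tested, 0.0102% passed. At an unadjusted p under 0.05, 1 of the 35 members was called, Atg101, beside 4.83% of all genes tested, and limma-voom on the recovered reads called none. Atg101 was also the 1 member whose groups did not overlap, beside 3.08% of all genes tested (1.8% higher in CS pools). Both shares are those of the background to within 1 gene.

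The median log2 fold change of the 35 genes (CS over Ct) was -0.0095, beside 0.0043 over all genes tested. The estimate was positive for 16 members and negative for 19, from -0.45 for Atg4d to 0.25 for Atg101. The median size of the change, regardless of sign, was 0.081 for the members and 0.084 for all genes tested. Among roles with 3 or more genes, the median log2 fold change ran from -0.096 for the ATG8 processing and lipidation genes to 0.043 for the ATG8 family.

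The precision was enough to bound most of these differences. For 31 of the 35 genes the 95% interval of the fold change lay within 1.5-fold either way, and for 22 within 1.3-fold. Atg4d was the only member whose interval reached a 2-fold difference. The SD between libraries of a group had a median of 0.15 on the log2 scale, while counting alone would give 0.067.

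**Figure D2:**
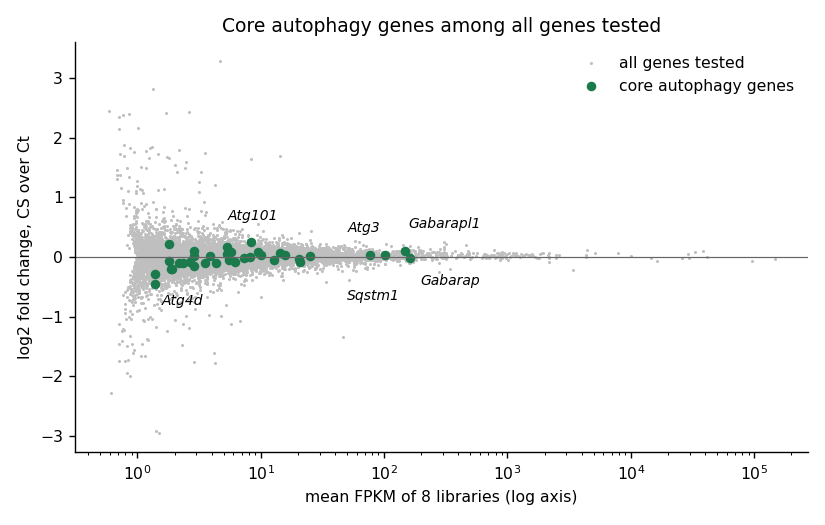
Log2 fold change (CS over Ct) against mean FPKM of the 8 libraries (log axis) for the 9794 genes tested (grey) and the 35 core autophagy genes (green). The members lie along 0 inside the cloud of all genes, and Atg101 (0.25) and Atg4d (-0.45) are the members farthest from 0 in each direction.

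**Figure D3:**
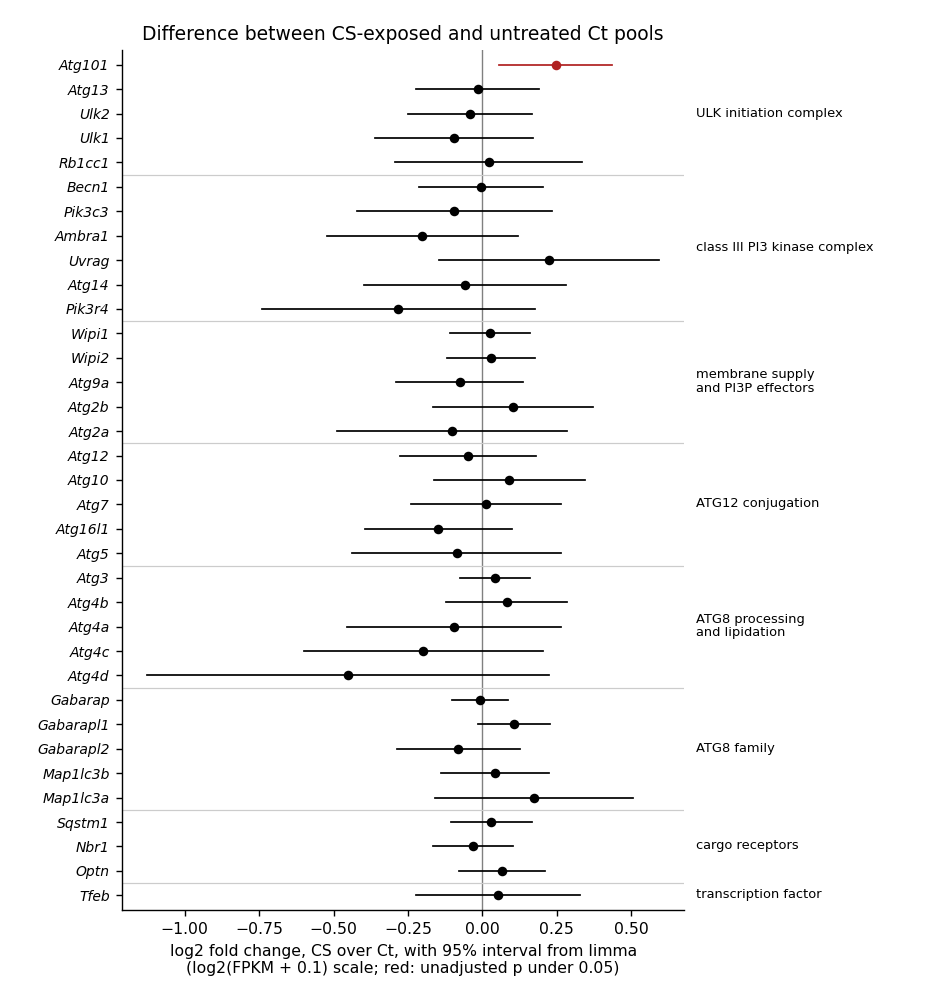
Log2 fold change (CS over Ct, points) with 95% interval from limma (lines) for each core autophagy gene, grouped by role. Atg101, in red, is the only member whose interval leaves out 0, and the intervals are narrowest for Gabarap, Atg3 and Gabarapl1 and widest for Atg4d.

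Among the ULK complex genes, Atg101 (ENSMUSG00000037204, chr15:101284272-101290945 in GRCm38) was the member with an unadjusted p under 0.05, with a higher level in CS pools. Its product binds ATG13 and stabilises it in the complex. Atg101 stood at 7.97, 7.58, 6.82 and 7.86 FPKM in Ct replicates 1 to 4. In CS replicates 1 to 4 it stood at 8.71, 8.34, 10.1 and 8.79 FPKM. Every CS pool was above every Ct pool, and the gap between the highest Ct and the lowest CS value was smaller than the SD within either group.

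The mean of Atg101 was 8.99 ± 0.768 FPKM (SD, n = 4) in CS pools and 7.56 ± 0.521 FPKM (SD, n = 4) in Ct pools. Its log2 fold change was 0.25 with a standard error of 0.087 and a 95% interval from 0.05 to 0.44 (limma, unadjusted p = 0.016, adjusted p = 0.956). The two-sided exact permutation test gave p = 0.029, the smallest possible. In terms of reads, the gene rested on 175 to 255 fragments in a library.

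Whether Atg101 passed an unadjusted p under 0.05 depended on the library left out and on the test. Without CS replicate 3, which had the highest value, the log2 fold change was 0.19, and with limma-voom on the recovered reads it was 0.25. In neither case did it pass an unadjusted p under 0.05. Without Ct replicate 3, which had the lowest value, the log2 fold change was nearly as low, at 0.20. It passed there (limma, unadjusted p = 0.0498, beside 0.0528 without CS replicate 3). CS replicate 3 was also the library with the highest rod (85.5 FPKM) and pigment epithelium (25.9 FPKM) marker sums, and the part of such cells in the Atg101 value was not tested. In a bulk pool, a change in the share of a cell type and a change of RNA per cell cannot be told apart.

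**Figure D4:**
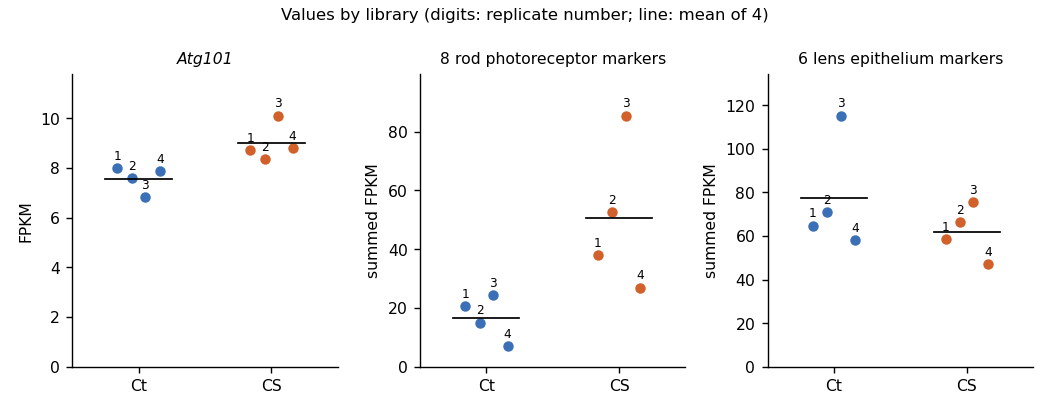
Atg101 in FPKM (left), the summed FPKM of 8 rod photoreceptor markers (middle) and of 6 lens epithelium markers (right) in each library, with the replicate number above each point and a line at the mean of 4. All 4 CS pools exceed all 4 Ct pools for Atg101 and for the rod markers, and CS replicate 3 is highest within its group in all 3 panels.

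The other 4 genes of the complex, which encode its kinases Ulk1 and Ulk2, the scaffold Rb1cc1 (FIP200) and the adaptor Atg13, had log2 fold changes between -0.095 and 0.021. Their exact permutation p values were 0.457 for Ulk1, 0.600 for Ulk2, 0.914 for Rb1cc1 and 0.83 for Atg13 (two-sided). Of the kinases, Ulk2 stood above Ulk1 in 8 of 8 libraries, with a ratio of 1.27 ± 0.221 in Ct pools and 1.31 ± 0.19 in CS pools (SD, n = 4). The scaffold Rb1cc1 was the lowest of the 5, at 2.88 FPKM. It is 95.6% alike to Gm13961 over 1324 bases (0.0035 FPKM), and how reads shared with that gene were counted was not tested.

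The class III PI3 kinase genes were expressed at low levels, with 4 of 6 between 1.38 and 1.89 FPKM. Becn1, the Beclin 1 subunit shared by the complexes that act in autophagy and in endosome traffic, was the highest, between 7.25 and 9.56 FPKM, and the catalytic subunit Pik3c3 stood at 3.52 FPKM. The regulatory subunit Pik3r4, which had the lowest mean of the members but lay below Atg4d in only 5 of 8 libraries, stood at 1.39, 1.79, 1.46 and 1.42 FPKM in Ct pools and at 0.817, 1.29, 1.37 and 1.52 FPKM in CS pools. CS replicate 1 was the lowest of the 8, and the groups overlapped.

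None of these 6 genes passed an unadjusted p under 0.05. Pik3r4 had a log2 fold change of -0.28 (95% interval -0.74 to 0.18, exact permutation p = 0.200). Ambra1, a Beclin 1-binding regulator, had one of -0.20 (-0.52 to 0.12, exact p = 0.114), and Uvrag, a subunit of the endosomal complex, one of 0.22 (-0.15 to 0.59, exact p = 0.229). Single libraries moved these values, to -0.11 for Pik3r4 without CS replicate 1, to -0.11 for Ambra1 without CS replicate 3 and to 0.11 for Uvrag without CS replicate 4. For Becn1 it was -0.0059 (-0.21 to 0.20). Atg14, which directs the complex to autophagosome formation, stood at 1.79 FPKM, so that Becn1 exceeded it by 4.61 ± 1.17 times in Ct pools and 4.71 ± 0.614 times in CS pools (SD, n = 4). On the opposite strand, exons of Becn1 share 3104 bases with Cntd1 (0.0816 FPKM) and those of Atg14 share 239 bases with Gm49004. Uvrag has stretches alike to other genes, such as Tsc2 (95.6% over 226 bases, 8.03 FPKM) and Mettl6 (95.1% over 345 bases, 4.40 FPKM). How shared reads were counted was not tested, so these levels are uncertain to that extent.

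Among the genes for membrane supply and PI3P reading, the PI3P-binding Wipi1 and Wipi2 were the highest. Wipi1 lay between 23.7 and 26.6 FPKM and Wipi2 between 14.9 and 16.8 FPKM, and Wipi1 exceeded Wipi2 in 8 of 8 libraries. Their log2 fold changes were 0.025 (95% interval -0.11 to 0.16) and 0.029 (-0.12 to 0.18). Atg9a, a lipid scramblase of the vesicles that seed the membrane, lay between 5.54 and 7.15 FPKM. Its exons share 1832 bases with the processed transcript Gm29253 on the same strand, so its level is uncertain whatever the strand setting of the counting. Of the lipid transfer proteins, Atg2b stood above Atg2a in 7 of 8 libraries with the length behind the FPKM and in 8 of 8 with the longest coding transcript, and exons of Atg2b share 383 bases with Gskip on the opposite strand (4.90 FPKM). None of the 5 passed an unadjusted p under 0.05, and their estimates ran from -0.10 to 0.10.

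In the ATG12 conjugation system, the ubiquitin-like Atg12 (12.8 FPKM) and its E2-like enzyme Atg10 (9.51 FPKM) stood above the E1-like Atg7 (3.90 FPKM), the acceptor Atg5 (2.69 FPKM) and Atg16l1 (2.88 FPKM), which brings the conjugate to the membrane. Of the E2-like enzymes of the pathway, Atg3 exceeded Atg10 by 8.38 ± 1.08 times in Ct pools and 8.14 ± 1.3 times in CS pools (SD, n = 4). None of the 5 genes passed an unadjusted p under 0.05. The estimates ran from -0.15 for Atg16l1 (95% interval -0.39 to 0.10, exact permutation p = 0.143) to 0.091 for Atg10 (-0.16 to 0.35, exact p = 0.543). Leaving out CS replicate 3 moved them to -0.092 and 0.018, and leaving out CS replicate 2 moved Atg10 to 0.17.

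Atg3 (ENSMUSG00000022663) was one of the most tightly measured members. It stood at 77.3, 79.9, 72.9 and 74.7 FPKM in Ct pools and at 74.2, 75.7, 84.0 and 80.4 FPKM in CS pools, and the groups overlapped. Its log2 fold change was 0.043 with a 95% interval from -0.074 to 0.16 (exact permutation p = 0.429). Atg3 is the member with the core CACGTG at a pair of promoter sites shown above, and Atg5, Atg7 and Atg14, with 1 site each, had log2 fold changes of -0.086, 0.012 and -0.058.

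The ATG4 proteases, which trim ATG8 proteins before lipidation and release them afterwards, were far lower than Atg3. Atg4b, the main protease for the LC3 and GABARAP proteins, was the highest of the 4 in every library and held 48.1% ± 5.16 of their summed FPKM in Ct pools and 53.4% ± 4.38 in CS pools (SD, n = 4; two-sided exact permutation test, p = 0.171). Atg4a has a pseudogene, Atg4a-ps, that is 99.3% alike over 2115 bases and is listed at 0 FPKM, so the level of Atg4a and these shares are uncertain. Atg4d ranged from 1.11 to 2.11 FPKM in Ct pools and from 0.546 to 1.62 FPKM in CS pools. Its log2 fold change of -0.45 had a 95% interval from -1.13 to 0.22 (exact permutation p = 0.229). It was -0.15 without CS replicate 4 and -0.31 without Ct replicate 4, reached -0.62 without CS replicate 2, and rested on 30 to 97 fragments in a library. Exons of Atg4d share 1405 bases with Kri1 on the opposite strand (2.53 FPKM), and whether the counting used strand is not given in the sources used here.

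The ATG8 family was expressed almost wholly as its GABARAP subfamily. Gabarap, Gabarapl1 and Gabarapl2 together held 95.6% ± 0.485 of the ATG8 family FPKM in Ct pools and 95.5% ± 0.592 in CS pools (SD, n = 4). Map1lc3b, which encodes the LC3B protein widely used as the marker of autophagosomes, held 2.92% ± 0.376 and 2.91% ± 0.182. The share of the GABARAP subfamily lay between 94.6% and 96.0% in the 8 libraries, and with the longest coding transcript between 92.8% and 94.5%.

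Gabarap (ENSMUSG00000018567, chr11:69991143-69994951) stood at 171, 164, 156 and 164 FPKM in Ct pools and at 165, 161, 156 and 168 FPKM in CS pools. Replicate 3 was the lowest of each group, and the groups overlapped fully. The log2 fold change was -0.0095 with a 95% interval of the fold change from 0.931 to 1.06 (exact permutation p = 0.8), the narrowest of the 35 genes.

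Gabarapl1 (ENSMUSG00000030161, chr6:129533160-129542346) stood at 150.1, 149, 127 and 145 FPKM in Ct pools and at 154, 159, 151 and 149.8 FPKM in CS pools. Ct replicate 3 was well below the other 7 libraries, and the lowest CS value fell just below the highest Ct value. The log2 fold change was 0.11 with a 95% interval from -0.014 to 0.23 (limma, p = 0.078, adjusted p = 0.956; two-sided exact permutation test, p = 0.057). This was the second lowest unadjusted p among the members. Without Ct replicate 3 the log2 fold change was 0.052, and without Ct replicate 1 it was 0.13 and passed an unadjusted p under 0.05. Ct replicate 3 was also the library with the highest lens epithelium marker sum, 115 FPKM. Across the 8 libraries Gabarapl1 was set against the mean log2 level of these markers after the data had been seen, with Pearson's r = -0.71 (exact permutation p = 0.087, Benjamini-Hochberg adjusted 0.517 over the members) and Spearman's rho = -0.24 (exact permutation p = 0.582, adjusted 0.867). Without the 2 libraries farthest from the median of the markers, Ct replicate 3 and CS replicate 4, r was 0.21, so the negative r did not hold without them. They were left out together, so the part of each alone was not tested. Within the Ct pools r was -0.88 and within the CS pools 0.27. Exons of Gabarapl1 share 570 bases with the transcript 1700101I11Rik on the opposite strand (6.29 FPKM).

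As shares of the family, Gabarap held 47.8% ± 0.701 in Ct and 46.2% ± 1.24 in CS pools, and Gabarapl1 held 41.6% ± 1.67 in Ct and 43.6% ± 0.805 in CS pools (SD, n = 4). Both differences had an exact permutation p of 0.057 (two-sided), and these shares are not independent, since they nearly fill the family. Gabarap exceeded Gabarapl1 in 8 of 8 libraries per length. In reads without length the order was the opposite in 8 of 8, as the length behind the FPKM is 1351 bases for Gabarap and 1765 for Gabarapl1.

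Gabarapl2, also called GATE-16, stood at 18.5, 21.5, 25.1 and 20.1 FPKM in Ct pools and at 22.0, 20.8, 19.1 and 18.4 FPKM in CS pools. Its highest value was that of Ct replicate 3, the library with the lowest Gabarapl1 of the 8. The log2 fold change was -0.081 (95% interval -0.29 to 0.13, exact permutation p = 0.514). It was near 0 (-6.5e-05) without Ct replicate 3 and -0.15 without Ct replicate 1.

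Map1lc3b (ENSMUSG00000031812, chr8:121590361-121598760) stood at 9.63, 9.84, 11.3 and 9.12 FPKM in Ct pools and at 10.2, 9.65, 10.9 and 10.2 FPKM in CS pools. The groups overlapped, and the log2 fold change was 0.043 (95% interval -0.14 to 0.22, exact permutation p = 0.514). Per length, Gabarap exceeded Map1lc3b by 16.6 ± 1.91 times in Ct pools and 15.9 ± 1.07 times in CS pools (SD, n = 4). With the longest coding transcripts (2633 bases for Map1lc3b in place of 4138) this ratio was 10.5 ± 1.22 and 10.1 ± 0.68, and in reads without length 5.41 ± 0.625 and 5.20 ± 0.349. Map1lc3b also has 4 processed copies that are 96.5% to 99.7% alike over 360 to 378 bases, of which the highest, Gm6055, stood at 0.228 FPKM, and Gabarapl2 has 3 that are 96.6% to 99.4% alike over 349 to 352 bases. How reads shared with such copies were counted was not tested, so the levels of both genes are uncertain to that extent. For Map1lc3b the log2 fold change was 0.0022 without Ct replicate 4 and 0.10 without Ct replicate 3.

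Map1lc3a was the lowest ATG8 gene, at 4.61, 5.47, 5.14 and 4.72 FPKM in Ct pools and at 4.94, 5.65, 7.89 and 4.53 FPKM in CS pools. CS replicate 3 stood above the other 7 libraries, which did not separate by group. The log2 fold change was 0.17 (95% interval -0.16 to 0.51, exact permutation p = 0.486), and 0.013 without CS replicate 3. That library also had the highest rod (85.5 FPKM) and pigment epithelium (25.9 FPKM) marker sums. The part of such cells in the Map1lc3a value was not tested.

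**Figure D5:**
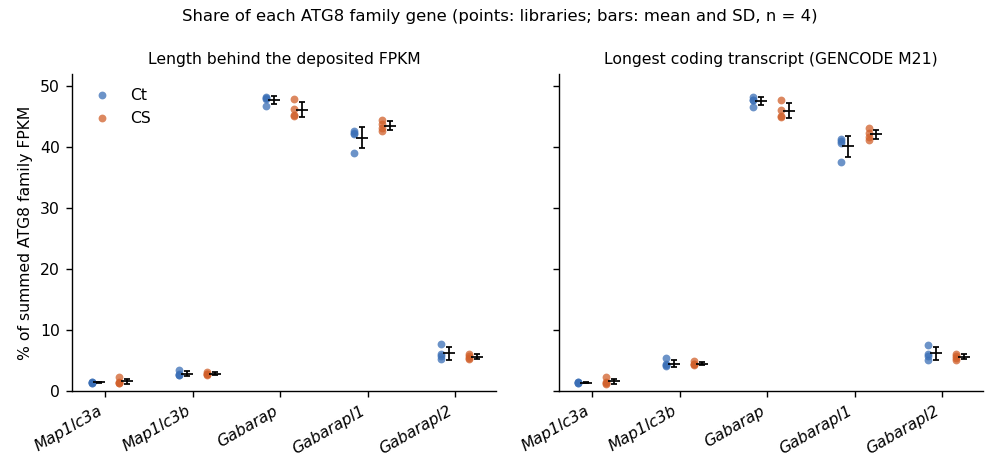
Share of each ATG8 family gene in the summed FPKM of the 5 genes, in percent, with points for the libraries and bars for mean and SD (n = 4 a group), for the length behind the deposited FPKM (left) and for the longest coding transcript (right). Gabarap and Gabarapl1 hold at least 37.6% each under both lengths, and the LC3 genes hold at most 5.41% each.

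Of the cargo receptors, Sqstm1 (p62; ENSMUSG00000015837, chr11:50199366-50210827) stood at 113, 103, 95.4 and 92.8 FPKM in Ct pools and at 97.6, 102, 105 and 107 FPKM in CS pools. The CS pools all lay within the range of the Ct pools. The log2 fold change was 0.030 (95% interval -0.11 to 0.17, exact permutation p = 0.714). As a fold change, this interval ran from 0.929 to 1.12. Sqstm1 is a known target of NRF2, the regulator of the response to oxidants, but NRF2 activity was not tested here.

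Nbr1, a relative of p62, stood at 20.4, 20.6, 20.4 and 20.4 FPKM in Ct pools and at 19.1, 21.9, 19.5 and 19.7 FPKM in CS pools. The Ct pools were nearly equal and the CS pools lay on both sides of them. Sqstm1 exceeded Nbr1 by 4.94 ± 0.439 times in Ct pools and 5.15 ± 0.338 times in CS pools (SD, n = 4). Optn, the receptor optineurin that acts on damaged mitochondria and bacteria, stood at 13.8, 13.6, 13.2 and 14.9 FPKM in Ct pools and at 14.0, 14.6, 14.6 and 15.0 FPKM in CS pools. Its groups overlapped through Ct replicate 4 alone, and the log2 fold change was 0.066 (95% interval -0.077 to 0.21, exact permutation p = 0.171).

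Tfeb, the regulator of autophagy and lysosome genes, stood at 6.12, 4.95, 5.12 and 4.51 FPKM in Ct pools and at 4.61, 5.03, 5.37 and 6.51 FPKM in CS pools. The groups covered nearly the same range, and the log2 fold change was 0.052 (95% interval -0.22 to 0.33, exact permutation p = 0.686). In both groups Tfeb stood above its relative Mitf, at 2.77 ± 0.286 FPKM in Ct and 2.57 ± 0.297 FPKM in CS pools (SD, n = 4), while Tfec was listed at 0 in all 8 libraries.

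Other genes of the pathway were read from 6 lists with 64 genes, of which 60 could be tested. At an unadjusted p under 0.05, 1 of the 60 was higher in CS pools and 1 was lower, beside 2.75% and 2.08% of all genes tested, and none passed the adjusted threshold (limma). The gene that was higher was Tbk1, a kinase that phosphorylates Optn and p62, at 3.07 ± 0.203 FPKM in Ct and 3.88 ± 0.706 FPKM in CS pools (SD, n = 4; log2 fold change 0.31, limma p = 0.038, adjusted p = 0.956, exact permutation p = 0.086). The gene that was lower was Nrbf2, which joins the ATG14-containing PI3 kinase complex, at 2.64 ± 0.539 and 1.88 ± 0.278 FPKM (log2 fold change -0.45, limma p = 0.020, adjusted p = 0.956, exact permutation p = 0.086). In both genes the groups overlapped. Tbk1 lost the unadjusted call without Ct replicate 1, 3 or 4 or without CS replicate 1 or 4, and after median centring, and Nrbf2 lost it without Ct replicate 2 or CS replicate 2.

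In 1 of the 60 the groups did not overlap, namely Rubcn, an inhibitor of the endosomal PI3 kinase complex that the table lists by the older symbol 1700021K19Rik. It stood at 7.22, 6.84, 6.82 and 7.09 FPKM in Ct pools and at 7.47, 7.77, 7.24 and 7.87 FPKM in CS pools. Over all genes tested the groups did not overlap in 3.08% (1.8% higher in CS). The log2 fold change was 0.12 (limma, p = 0.141; exact permutation p = 0.029), and the groups overlapped after median centring or quantile normalization.

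The list medians lay between -0.028 and 0.052 on the log2 scale. They were -0.0013 for 17 genes of mTORC1 and AMPK control, which set the activity of the ULK complex, -0.028 for 13 genes of fusion with lysosomes and 0.052 for 9 genes of mitophagy. For 11 other autophagosome factors the median was 0.0063, for 8 other cargo receptors and adaptors 0.017, and for Tfe3 and Mitf together 0.0045. The highest gene of the mitophagy list was Bnip3l, also called NIX, a mitochondrial receptor that binds ATG8 proteins, at 120.0 ± 2.84 FPKM in Ct and 119 ± 1.89 FPKM in CS pools (SD, n = 4). In every library it lay above Sqstm1 and below Gabarapl1, and its log2 fold change was -0.012 (95% interval -0.098 to 0.074). The highest genes of the other lists were Rab7 (51.3 FPKM), the ER-phagy receptor Tex264 (40.9 FPKM), the AMPK-activating kinase Stk11 (33.1 FPKM) and Sh3glb1 (23.7 FPKM), with log2 fold changes between 0.037 and 0.074. Of the TFEB relatives Mitf was the higher, at 2.67 FPKM with a log2 fold change of -0.11 (95% interval -0.38 to 0.17). The 4 genes under the threshold of 1.0 FPKM were Deptor, Ccpg1, Atg9b and Tfec, none above 0.187 FPKM in any library.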

How the data were processed

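Per the labels, the authors mapped reads to GRCm38 (mm10) by STAR 2.5 and obtained gene counts by HTSeq 0.6.1. The deposited values are FPKM made from those counts, 1 column a library. The annotation release and the strand setting are not given in the sources used here. The deposited group means, log2 ratios and p-values of the authors' own comparison (made with DESeq2, per the labels) were not used. For testing, genes needed a group mean of 1.0 FPKM in CS or Ct pools. Log2(FPKM + 0.1) was fitted in limma 3.58.1 (R 4.3.3; lmFit, then eBayes with a trend, two-sided), and p-values were adjusted by Benjamini-Hochberg across the genes tested. This scale understates the change of low genes. Exact permutation tests used all 70 assignments of the 8 libraries.

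FPKM values came out as whole reads (within 0.02 reads) for 100% of the 9794 genes tested, and limma-voom on these reads, like the lengths of GENCODE M21, was added after the data had been seen. Replicate numbers did not qualify as pairs. Alternatives were other pseudocounts, filters, centring, normalization, eBayes settings, a replicate block and leaving out each library.

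The members and lists were chosen with earlier results of these data known. Named with values in every library were members with an unadjusted p under 0.05 or groups that do not overlap, the ATG8 family, cargo receptors, Tfeb and the highest and lowest members by level. The library values of Atg3 and Rubcn, and the values of other members singled out, were chosen after they were seen. Of the other lists, the highest gene and those with an unadjusted p under 0.05 were named, and of marker lists other than vessels and stroma the highest genes and Ptprc. Promoter sites are from RefSeq. Computations used Python 3.11.15, numpy 2.4.6, pandas 2.3.3, scipy 1.17.1 and matplotlib 3.10.9.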

Additional observations from a re-analysis of the deposited data

Results flagged for a closer look

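Dixon's test was applied to each of the 35 core autophagy genes in each group, 70 groups of 4 libraries in all, and 3 libraries lay further from the other 3 of their group than its critical value allows. Chance gives about 1 in 20, which is 3.5 of 70. Rb1cc1, the scaffold of the ULK complex, stood at 3.77 FPKM in Ct replicate 1 and at 2.51 to 2.69 FPKM in the other Ct pools. Wipi2 stood at 16.5 FPKM in Ct replicate 1 and at 15.3 to 15.4 FPKM in the other Ct pools. Atg4c, one of the ATG4 proteases, stood at 2.61 FPKM in Ct replicate 3 and at 1.79 to 1.83 FPKM in the other Ct pools. Without the library in question, the log2 fold change of Rb1cc1 was 0.15 in place of 0.021, that of Wipi2 0.056 in place of 0.029 and that of Atg4c -0.072 in place of -0.20, and none of the 3 passed an unadjusted p under 0.05 (limma).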

How the results depend on the processing

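The count of core autophagy genes with an adjusted p under 0.05 was 0 in all 18 alternatives (limma or limma-voom; lowest adjusted p of a member 0.886). At an unadjusted p under 0.05 the count was 1, 0 with limma-voom, and 0 to 2 when leaving out 1 library. The median log2 fold change of -0.0095 became 0.029 over the 20 members with a mean of at least 5 FPKM and lay between -0.034 and 0.012 when leaving out 1 library, being lowest without Ct replicate 4. Its sign was therefore not stable under these settings. The count of members whose groups do not overlap was 1 to 3 when leaving out 1 library, with 3 members (groups of 4 and 3) without Ct replicate 1 or CS replicate 4, where the groups of 6.15% and 6.09% of all genes tested did not overlap. Atg101 kept its sign in all 18 alternatives (0.19 to 0.28) and its unadjusted call in 16 of them (p from 0.013 to 0.083). Of 615 values of single genes, 585 kept their sign and side of the threshold and 27 changed sign, all when 1 library was left out. These 27 values belonged to 15 genes with log2 fold changes from -0.10 (Atg2a) to 0.052 (Tfeb) in the main fit. Beside the median size of 0.081 over the members, some of these 15 genes were not near 0. Their ranges were Ulk2 -0.088 to 0.0057, Rb1cc1 -0.035 to 0.15, Atg13 -0.063 to 0.033, Becn1 -0.064 to 0.067, Atg14 -0.13 to 0.0015, Pik3c3 -0.18 to 0.048, Atg2a -0.19 to 0.0036, Wipi1 -8.8e-05 to 0.047, Atg5 -0.18 to 0.0504, Atg7 -0.043 to 0.089, Atg12 -0.11 to 0.036, Atg4a -0.19 to 0.0059, Gabarap -0.033 to 0.012, Sqstm1 -0.0097 to 0.084 and Tfeb -0.042 to 0.13. Leaving out 1 library moved the log2 fold change by over 1.5 times or turned its sign in 34 of the 35 members, the exception being Atg101. The cause of these shifts was not tested beyond the library or genes left out.

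Same-numbered Ct and CS libraries deviated together only weakly (correlations 0.012 to 0.161), so the numbers were not taken as pairs. With the replicate block, 1 member had an unadjusted p under 0.05 (Atg101), none passed the adjustment, and the median stayed at -0.0095, while over all genes 522 in place of 473 had an unadjusted p under 0.05 and 5 in place of 1 passed the adjustment. Without a minimum FPKM, 862 genes had an unadjusted p under 0.05, and with a minimum of 5 FPKM 226 did, as the number of genes tested differs. Depth is lowest for Atg4d, with 30 fragments in CS replicate 4. Its SD within groups was 0.52 on the log2 scale, and counting error alone gives 0.18.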

Other observations

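The members were set against the level of the lens epithelium markers, which was highest in Ct replicate 3. This was chosen after the data had been seen, and 70 relations were computed (Pearson and Spearman for 35 genes over 8 libraries), on the mean log2 level of the 6 epithelium markers. Gabarap was lower where these markers were higher, with Pearson's r = -0.78 (exact permutation p = 0.017, Benjamini-Hochberg adjusted 0.517) and Spearman's rho = -0.83 (exact permutation p = 0.015, adjusted 0.538). Without the libraries farthest from the median of the markers, Ct replicate 3 and CS replicate 4, r was -0.64. Within the 4 Ct pools r was -0.84 and within the 4 CS pools -0.97, and 4 libraries are too few to test either. Map1lc3a was the other gene with an exact p under 0.05, for Spearman's rho only (0.74, exact permutation p = 0.046, adjusted 0.763; Pearson's r = 0.41, exact permutation p = 0.277). In all 3 of the 70 relations had an exact p under 0.05, beside 3.5 that chance gives, and none of the 70 passed the adjustment.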
